A study of Mus musculus with 6 samples.

Results

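Chromatin accessibility was examined at 34 nuclear receptor genes other than the PPARs in white preadipocytes, the fibroblast-like precursors of fat cells. The assay was ATAC-seq, in which the transposase Tn5 inserts sequencing adapters into open chromatin. The cells came from the inguinal white fat of C57BL/6 mice aged 8 to 12 weeks and were cultured on collagen and collected at day 0, before the differentiation medium with dexamethasone, T3 and rosiglitazone was added. Of 6 libraries, 3 came from wild type cells (WT) and 3 from double knockout cells (DKO, n = 3), which came from mice lacking both genes (Hmgn1-/- and Hmgn2-/-). HMGN1 and HMGN2 are small proteins that bind nucleosomes and counteract chromatin compaction. The labels do not say whether the libraries came from separate animals, so the p-values measure the spread between these libraries, which may be partly technical.

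Members were the peak summits in the body of a listed gene or within 10 kb of it (mm10, GENCODE M21). They numbered 6198 of 1797083 summits in the 6 lists. Summits of the 6 libraries were joined into windows reaching 250 bp to each side, of which 604 of 179254 lay at the receptor genes. The value of a window is the fold enrichment of its best summit, the ratio of transposase cut sites there to the local background in the same library. Windows counted from the gene ends to the 10 kb limit. The last window inside it, 9806 bp from Nr6a1, had a summit in 2 libraries (3.50 in WT replicate 1 and 3.28 in DKO replicate 3). The first window outside, 10173 bp from Rora, was listed in all 6 libraries with 3.76 to 5.48.

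Nuclear receptors are transcription factors that carry a DNA-binding domain of zinc fingers and, in most members, a pocket for a small lipophilic ligand. Many bind as a dimer with a retinoid X receptor (RXR) to repeats of a short half-site, whereas steroid receptors bind as homodimers and several orphan receptors bind a single extended half-site. Through corepressors and coactivators they switch target genes off or on. In fat cell precursors the glucocorticoid receptor and PPARγ promote differentiation, thyroid hormone receptors drive thermogenic genes, and COUP-TFII, TR4, REV-ERBs, RORs and NR4A proteins are known to act on adipogenesis or on lipid metabolism.

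The sequences below are shown because the results turn on them. They are the central 201 bases of windows, or the part of those bases outside annotated exons, read from the plus strand of GRCm38 (mm10). Capitals mark the AP-1 motif (TGACTCA, or TGAGTCA on the opposite strand), the receptor half-site (AGGTCA or TGACCT) and the TEAD motif (GGAATG or CATTCC). The first 5 belong to the windows with the smallest p between genotypes: the Thrb promoter at chr14:17660751-17660895, the Nr4a2 promoter at chr2:57123577-57123777, Esrrg intron 2 at chr1:187800655-187800855, Esrrb intron 6 at chr12:86518559-86518759 and Rora intron 1 at chr9:69054773-69054973.

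Thrb promoter: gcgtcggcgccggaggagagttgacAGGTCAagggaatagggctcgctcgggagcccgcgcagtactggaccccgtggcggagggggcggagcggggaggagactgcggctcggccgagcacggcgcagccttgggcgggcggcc
Nr4a2 promoter: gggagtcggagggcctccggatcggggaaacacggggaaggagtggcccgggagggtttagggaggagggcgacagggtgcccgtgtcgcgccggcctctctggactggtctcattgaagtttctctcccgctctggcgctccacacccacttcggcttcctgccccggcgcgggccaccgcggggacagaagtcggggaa
Esrrg intron, lower in DKO: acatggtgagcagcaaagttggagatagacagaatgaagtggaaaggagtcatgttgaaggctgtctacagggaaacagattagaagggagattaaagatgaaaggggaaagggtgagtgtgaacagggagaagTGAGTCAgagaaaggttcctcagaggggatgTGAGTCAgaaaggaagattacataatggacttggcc
Esrrb intron, higher in DKO: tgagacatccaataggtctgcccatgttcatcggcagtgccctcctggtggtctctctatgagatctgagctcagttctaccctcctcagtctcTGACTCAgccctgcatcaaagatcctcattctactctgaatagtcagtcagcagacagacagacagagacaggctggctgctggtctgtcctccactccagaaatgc
Rora intron, listed in WT alone: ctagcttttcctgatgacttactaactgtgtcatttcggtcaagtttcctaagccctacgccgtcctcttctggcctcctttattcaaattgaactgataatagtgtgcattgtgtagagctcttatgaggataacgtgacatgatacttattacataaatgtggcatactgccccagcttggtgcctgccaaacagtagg

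The next 3 are the strongest promoter window by mean normalized fold enrichment, that of Nr3c2 at chr8:76902021-76902221, and the leading pair of intronic windows, Thrb intron 1 at chr14:17675246-17675446 and Esrrg intron 2 at chr1:187910871-187911071.

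Nr3c2 promoter: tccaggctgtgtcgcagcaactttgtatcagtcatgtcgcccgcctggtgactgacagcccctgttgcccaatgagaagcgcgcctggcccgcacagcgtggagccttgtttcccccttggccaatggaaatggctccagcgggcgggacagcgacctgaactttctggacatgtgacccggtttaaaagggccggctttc
Thrb intron, strongest: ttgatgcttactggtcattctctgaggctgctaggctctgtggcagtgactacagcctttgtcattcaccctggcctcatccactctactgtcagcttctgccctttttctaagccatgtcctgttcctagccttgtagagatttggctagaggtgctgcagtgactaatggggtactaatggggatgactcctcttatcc
Esrrg intron, strongest: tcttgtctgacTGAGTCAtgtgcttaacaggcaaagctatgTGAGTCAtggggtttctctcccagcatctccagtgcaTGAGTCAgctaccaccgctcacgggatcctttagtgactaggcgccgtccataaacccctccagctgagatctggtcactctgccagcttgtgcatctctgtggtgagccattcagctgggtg

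The Thrb and Nr4a2 promoter stretches were rich in G and C (75.2% and 69.2%) and held 19 CpG sites each. The Rora intron held 4 CpG sites at 43.3% G and C. The strongest Esrrg intron site carried 3 AP-1 motifs, whereas the Nr3c2 promoter and the Thrb intron carried none of the marked motifs. Of the strongest windows outside promoters of the 10 genes with most windows, 3 held an AP-1 motif and 7 did not.

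The lists had been cut by the authors at a fixed length, so each held 299433 to 299620 summits. A window without a summit in a library had no listed summit of that library assigned to it and was not shown to be closed. The site could have been below the end of that list, or a listed summit could have lain nearby but outside the window. Which of these applied was not tested. The lists ended at different strengths, with a −log10 p of 3.54 in DKO replicate 3 and 5.63 in WT replicate 3, and DKO replicate 3 had the lowest background of cut sites (2.05, against 2.41 to 2.58 in the others). Of 10 genes that mark preadipocytes and mesenchymal cells, 9 had an open window within 1 kb of a transcription start site (TSS), 8 of them in all 6 libraries, and Ly6a had none. Of 5 mature adipocyte genes (Adipoq, Plin1, Cidec, Lep and Ucp1) none had one. Promoter windows were also present at 4 of 5 endothelial genes, 5 of 6 macrophage and leukocyte genes, 4 of 4 pericyte and smooth muscle genes, 2 of 6 epithelial genes and 1 of 4 muscle genes, with none at Emcn, Ptprc, Epcam, Krt5, Krt14, Krt18, Myod1, Myf5 or Pax7. Cdh5 and Itgam, of endothelial and myeloid cells, were listed in the 3 DKO libraries alone. Of the endothelial promoter windows 2 were lower in DKO and 2 higher, with a median difference of 0.06. Of the macrophage and leukocyte windows 2 were lower and 3 higher, with a median difference of 0.35. The pericyte gene Rgs5 was listed in 3 WT libraries and 1 DKO library (2 of the 4 genes of its list were lower and 2 higher, with a median difference of 0.02). The endothelial gene Pecam1 had 16.9, 12.2 and 17.2 in WT and 11.1, 11.8 and 10.3 in DKO (-0.31 ± 0.11, limma, adjusted p = 0.297). The fold enrichment summed over the macrophage and leukocyte list was 18.9 to 24.7 in WT and 21.3 to 29.4 in DKO, and over the endothelial list 33.3 to 42.1 and 33.5 to 40.3. It was 53.0 to 62.8 in WT and 47.6 to 54.5 in DKO over the preadipocyte and mesenchymal list, 34.2 to 44.6 and 27.9 to 36.6 over the pericyte list, 5.84 to 10.6 and 3.40 to 9.39 over the epithelial list, and under 4 in each library over the muscle list. The ranges of the genotypes overlapped in each list. These sums were of deposited values, not scaled between libraries, with an unlisted gene counted as 0. After normalization the median difference over the preadipocyte and mesenchymal list was -0.09, with 5 lower and 4 higher. An open promoter does not measure expression, and the part of other cell types in the results below was not tested.

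Nearly every receptor gene had an open promoter in both genotypes. A window centred within 1 kb of an annotated TSS was found at 31 of 34 genes, and for 26 genes the strongest such window was listed in all 6 libraries. The number of genes with an open promoter was 31, 31 and 30 in WT and 30, 31 and 30 in DKO (two-sided exact permutation test, p = 1.00, where 0.10 is the smallest p that 3 libraries against 3 can give). The remaining genes were Thra, Nr2f2 and Hnf4a. When the comprehensive GENCODE set was used in place of the basic set, a choice made after the data were seen, Thra and Nr2f2 also had a window near a TSS. The Thra window lay 52 bp from the start of a further transcript, with fold enrichments of 5.84, 6.14 and 6.82 in WT and 5.05, 6.58 and 6.32 in DKO. Hnf4a, a receptor of liver, kidney and gut, had none in either set.

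**Figure D1:**
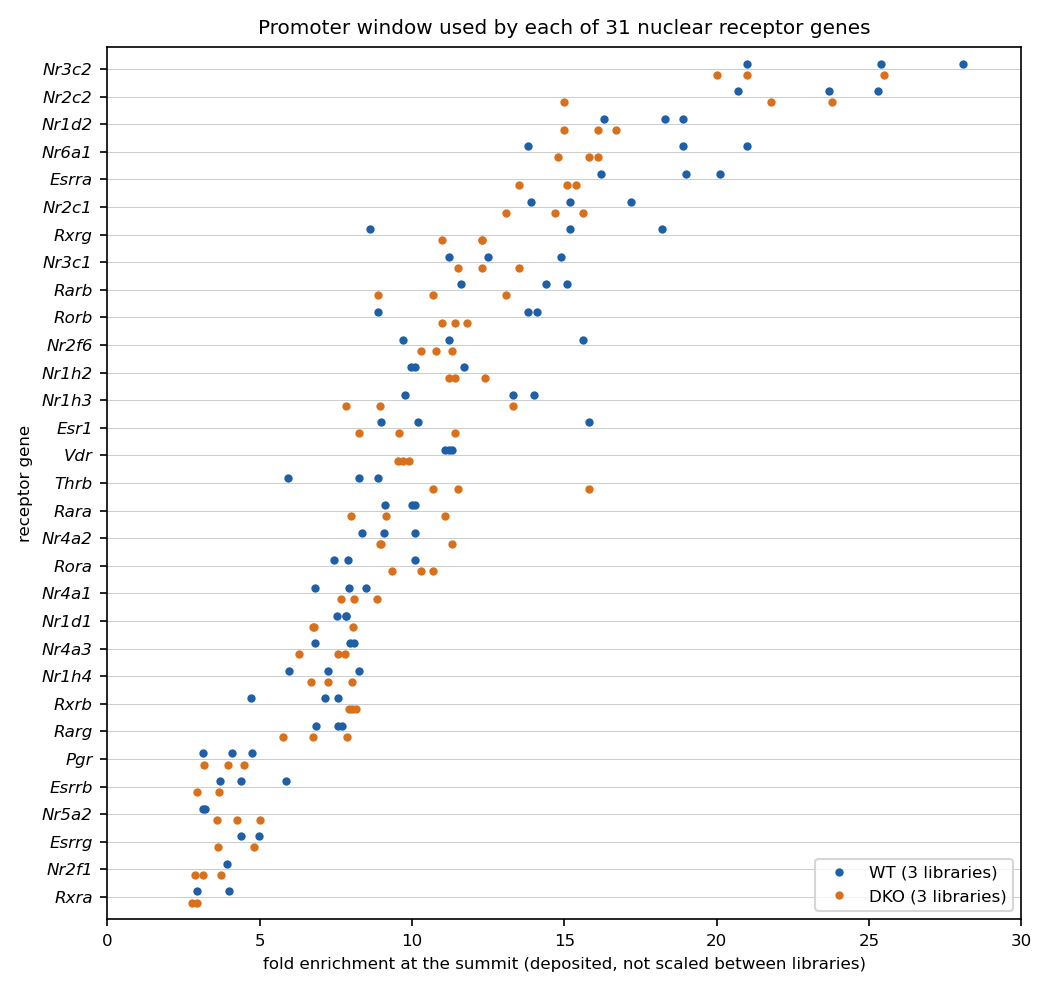
The horizontal axis is the deposited fold enrichment at the summit and each row is the promoter window used by 1 receptor gene, with a point for each WT (blue) and DKO (orange) library that lists a summit. Nr3c2 and Nr2c2 sit at the top with 15.0 to 28.1, Rxra at the bottom with under 5, and Thrb is the gene whose DKO points (10.7 to 15.8) all lie above its WT points (5.92 to 8.89) by the widest gap.

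The strongest promoter windows belonged to receptors of quite different classes. The mineralocorticoid receptor gene Nr3c2 led with a mean fold enrichment of 24.9 ± 3.58 (SD, n = 3) in WT and 22.2 ± 2.91 in DKO. It was followed by Nr2c2, which encodes the orphan receptor TR4, with 23.7, 20.7 and 25.3 in WT and 21.8, 23.8 and 15.0 in DKO. Nr1d2, which encodes the haem-binding repressor REV-ERBβ, had 18.9, 16.3 and 18.3 in WT and 16.1, 16.7 and 15.0 in DKO, and ranked between 471 and 1333 by p among all summits of a library. The groups overlapped at Nr3c2, Nr2c2 and Nr1d2. At Esrra, the oestrogen-related receptor of mitochondrial genes, the values were 19.0, 16.2 and 20.1 in WT and 15.4, 15.1 and 13.5 in DKO. The raw Esrra values did not overlap between groups, but after quantile normalization the difference was -0.19 on the log2 scale (limma, adjusted p = 0.451). The median fold enrichment of a whole list was 5.07, 4.55 and 5.87 in WT and 4.75, 4.82 and 4.35 in DKO. Over the 6 libraries the ranges of neighbours in this order, such as Nr2c2, Nr1d2, Nr6a1 and Esrra, overlapped.

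At the low end were promoters near the end of the lists. Rxra, the most widely used RXR, was represented at its TSSs by a window at chr2:27710406-27710906 with a summit in 2 WT and 2 DKO libraries and values under 5. At the first annotated start lay 2 windows, the better nearly as strong (mean normalized log2 value 1.291, against 1.302). They differed by 0.77 and 0.47, against -0.06 for the window used. No Rxra window had an unadjusted p under 0.05 by limma. A much stronger Rxra window, chr2:27740155-27740655 in intron 2, lay 204 bp from the TSS of a transcript that only the comprehensive set holds. There the values were 21.5, 18.1 and 23.8 in WT and 20.6, 18.8 and 19.7 in DKO. Nr2f1, Esrrg, Nr5a2 and Esrrb were also missing from at least 1 library at the promoter, and Pgr was listed in all 6 with a mean of 3.99 ± 0.810 (SD, n = 3) in WT and 3.88 ± 0.652 in DKO. Rxrb shared its promoter window with the gene Gm20427, whose TSS lay 8 bp from the window centre.

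More than 1 annotated start was often open in the same gene. The TSSs of the 34 genes formed 66 promoter regions, of which 45 were open, and 13 of the 22 genes with more than 1 region had more than 1 open. The thyroid hormone receptor gene Thrb was open at its upstream region and had no window at the start of another transcript far inside the gene. Esrrg and Esrrb were likewise open at 1 region each. Rora, which encodes an orphan receptor of the ROR family, was open at both of its regions, and Rara and Nr1h4 left 1 region each without a window.

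Away from promoters the receptor genes held many open introns. Of the 604 windows, 81 were promoter windows, 413 were intronic, 1 was in a coding exon, 6 were in untranslated or non-coding exons, 43 were upstream and 68 downstream, with 8 windows counted for 2 neighbouring receptor genes and 612 gene and window pairs in all. Summits in all 6 libraries were found in 355 windows (58.8%, against 58.0% of all windows). The number of windows ran from 4 at Nr1h2 to 113 at Rora. It rose with gene length across the 34 genes (Spearman rho = 0.622 across genes, which are not independent). Intronic windows listed in all 6 libraries were present at 28 genes, with 61 at Rora, 25 at Rarb and 24 at Esr1. Per 100 kb of the gene and its flanks, Nr4a1 had 46.9 windows, Rara 38.7 and Nr3c2 3.01. Of the 604 windows, 46 lay within 1 kb of the TSS of a gene outside the receptor set.

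**Figure D2:**
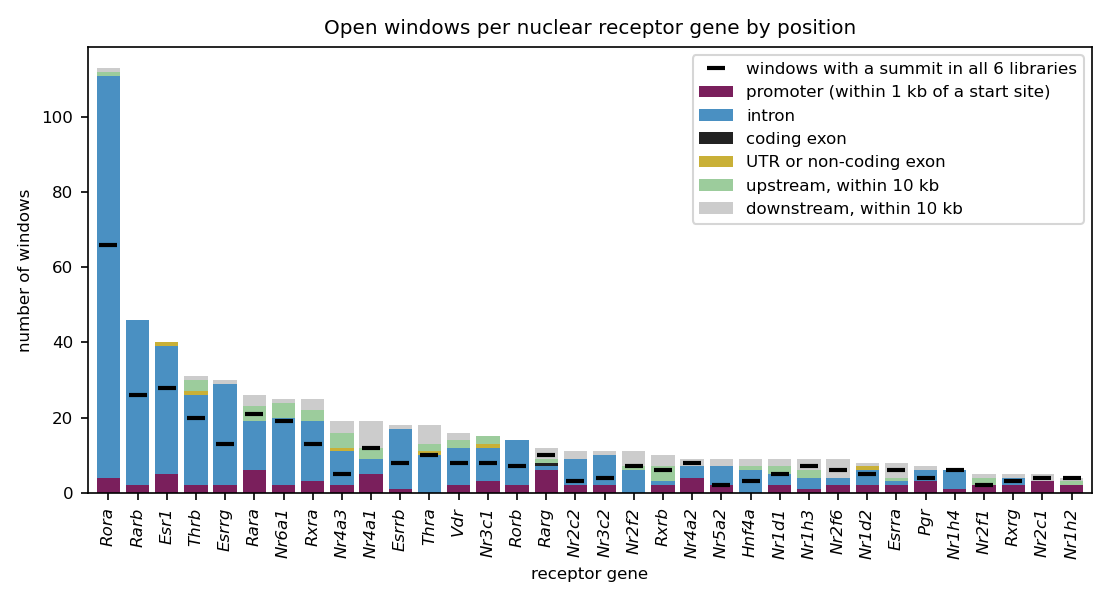
Each bar is 1 of 34 receptor genes and its height the number of windows, stacked by position, and the black line marks those with a summit in all 6 libraries. Rora stands apart with 113 windows (66 in all 6 libraries), nearly all intronic, while Nr1h2 has 4.

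The strongest window was a promoter at 8 genes, an intron at 12, upstream at 6, downstream at 7 and a coding exon at 1 (Rarg). For Nr1h2, Nr1h3, Nr2c1, Nr2f1, Nr2f2, Pgr and Thra the upstream or downstream window was nearest to the TSS of another gene. Esrrg was among the genes with a weak promoter and a strong intron. Its promoter window was listed in 2 libraries of each genotype, whereas chr1:187910721-187911221 in intron 2, 86856 bp from a TSS, had 24.2, 19.2 and 24.7 in WT and 18.6, 22.1 and 21.9 in DKO. The pileup there was 111 to 217 cut sites. The groups overlapped and the difference was -0.01 ± 0.10 (SE) on the log2 scale (limma, adjusted p = 0.997). Thrb intron 1 held a window at chr14:17675096-17675596 with a mean of 23.1 ± 2.25 (SD, n = 3) in WT and 24.2 ± 2.86 in DKO. Rarb, a retinoic acid receptor, had its strongest window in intron 2 at chr14:16525992-16526492, with 20.9, 19.5 and 26.8 in WT and 19.1, 20.8 and 16.9 in DKO. For Nr6a1, chr2:38874486-38874986 in intron 2 reached 20.6, 15.1 and 23.1 in WT and 19.0, 17.3 and 17.5 in DKO. The differences at these sites of Thrb, Rarb and Nr6a1 were 0.16, -0.12 and 0.01, with adjusted p by limma of 0.534, 0.628 and 0.994. Esr1, the oestrogen receptor α gene, had its strongest window in intron 8 at chr10:4983812-4984312, at 19.9, 15.7 and 20.3 in WT and 15.4, 15.6 and 17.0 in DKO. Its difference of -0.08 ± 0.11 (SE) was also within the error (limma, adjusted p = 0.793).

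Upstream of Nr4a1, which encodes the immediate early orphan receptor NUR77, chr15:101246331-101246831 was higher in every DKO library. The values were 11.8, 12.8 and 12.5 in WT and 15.2, 14.4 and 14.4 in DKO. The difference was 0.41 ± 0.14 (SE), which did not pass the adjustment (limma, unadjusted p = 0.0131, adjusted p = 0.257). The strongest window upstream of Nr4a3 differed by 0.32 ± 0.18.

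**Figure D3:**
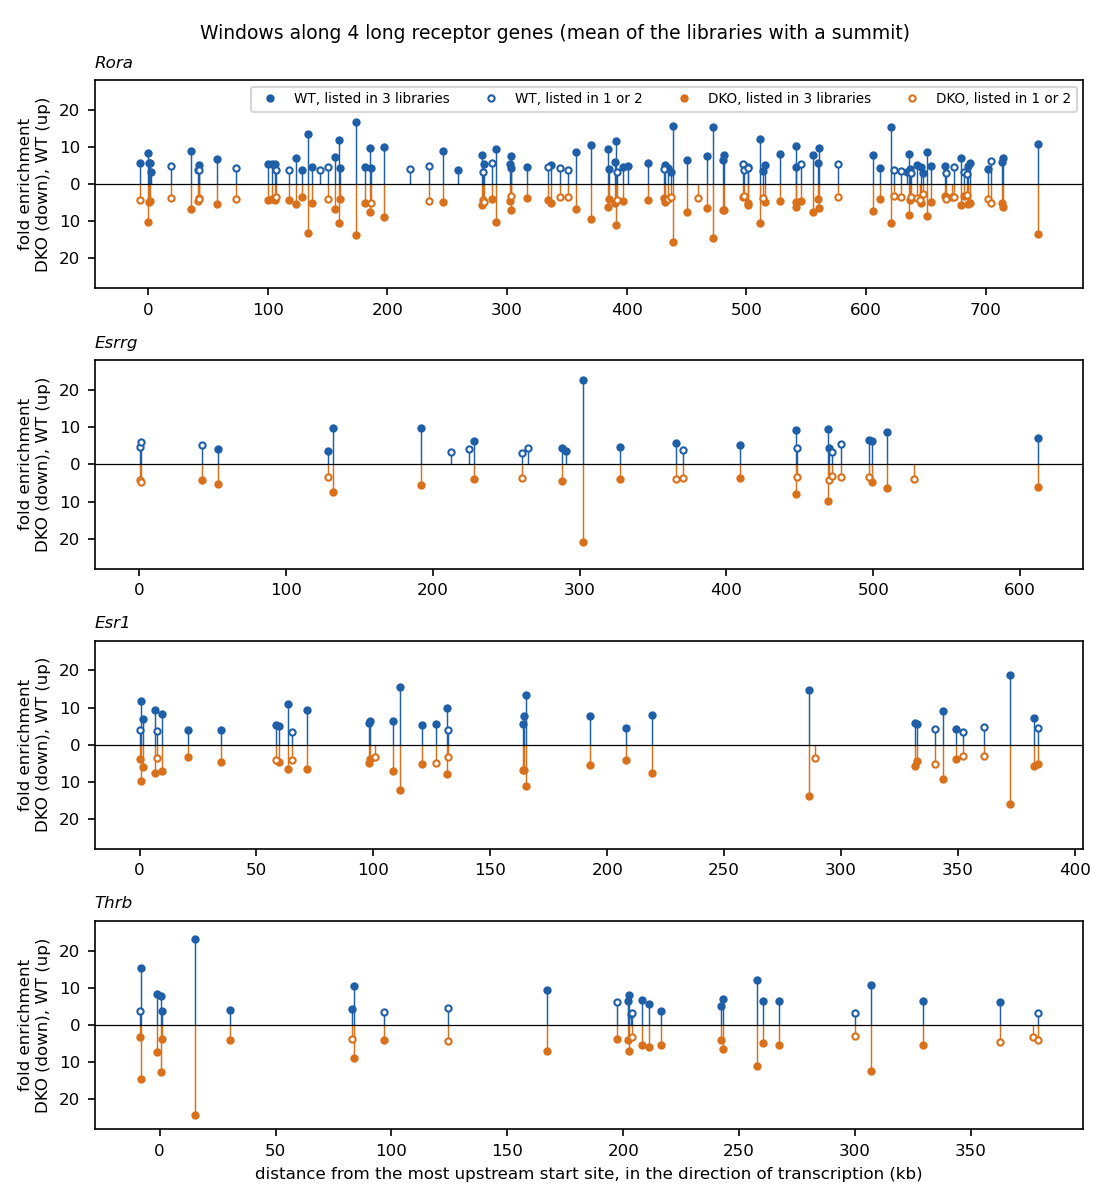
The horizontal axis is the distance from the most upstream TSS along Rora, Esrrg, Esr1 and Thrb in kb, and the vertical axis is the mean fold enrichment of the libraries with a summit, WT upwards and DKO downwards; filled points are listed in 3 libraries of the genotype, open points in 1 or 2. The profiles mirror each other over most of each gene, and points with no partner, such as those of Rora and Esrrg listed in WT alone, are short.

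Sequence at the windows followed their position. Median G and C content over the central 201 bases was 61.2% in the 81 promoter windows, with 10 CpG sites, and 46.8% in intronic windows, with 2.0 CpG sites. All windows within 1 kb of a TSS had 57.2% and those farther away 46.8%. On either strand the AP-1 motif was found in 102 of 413 intronic windows (24.7%, against 26.6% of all windows farther than 1 kb from a TSS) and in 7.41% of promoter windows (against 8.89%). The TEAD motif was found in 18.4% of intronic windows (against 17.5%). The receptor half-site was found in 16.0% of intronic windows (against 14.6%) and in 14.8% of promoter windows (against 9.86% of all windows near a TSS). Within that half-site, the longer NR4A element NBRE (AAAGGTCA) was in 8 of 604 member windows (1.32%, against 1.26% of all) and the oestrogen-related receptor element ERRE (TCAAGGTCA) in 4 (0.662%, against 0.312%). The glucocorticoid element ACANNNTGT was in 30 windows (4.97%, against 6.90%), the E-box CACGTG in 20 (3.31%, against 3.58%) and the cAMP element TGACGTCA in 2 (0.331%, against 0.660%). The CTCF consensus was in 24 (3.97%, against 5.78%). Exact direct repeats of the half-site with 1, 4 or 5 bases between them (DR1, DR4 and DR5) were in none of the member windows and in at most 0.0273% of all. An NBRE and an AP-1 motif lay in the Nr2f6 promoter window. Such matches are descriptions of letters and not measured sites. Away from TSSs, the median change between genotypes was -0.02 in the 116 member windows with an AP-1 motif and 0.03 in the 364 without, beside 0.00 and -0.01 over all windows away from TSSs.

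In the fit to all windows no receptor gene window was called between genotypes. The fit of limma to quantile-normalized log2 fold enrichment called 102 of 179254 windows at an adjusted p under 0.05 (0.0569% of all windows tested), and 0 of the 604 at receptor genes. At an unadjusted p under 0.05, 22 member windows were lower in DKO (3.64%, against 6.10% of all) and 30 were higher (4.97%, against 5.69%). Without the mean-variance trend limma called 8 member windows (1.32%, against 2.31% of all), and 7 of the windows named here were among them, all listed in 1 genotype alone. The fits with other scalings, without 1 library or with a replicate block called 0. When the fit was restricted to the 103980 windows that every library lists, 1 of 355 member windows was called (0.282%, against 0.873% of all). It was the Thrb promoter.

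The 3 libraries of a genotype were separated from the 3 of the other at 41 member windows with lower values in DKO (6.79%, against 7.67% of all windows) and at 59 with higher values (9.77%, against 8.76%). By rank on p within each list, 35 of the 355 windows that every library lists ranked worse in every DKO library (9.86%, against 10.9%) and 33 ranked better (9.30%, against 7.75%). These shares were close to those of all windows. The number of summits at receptor genes was 1017, 1041 and 1009 in WT and 1044, 1040 and 1047 in DKO (two-sided exact permutation test, p = 0.20). Their share of the 50000 best summits was 0.312% ± 0.0117 (SD, n = 3) in WT and 0.331% ± 0.0204 in DKO (two-sided exact permutation test, p = 0.30).

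The median difference over member windows was 0.05 (DKO minus WT, log2 scale), beside 0.01 over all windows. It was 0.12 over the 81 promoter windows, of which 71.6% were higher in DKO, and 0.00 over the 413 intronic windows. Windows near TSSs were higher in general, with a median of 0.08 and 63.9% higher over all 30376 of them. The direction at promoters depended on the scaling. With 1 window a gene, 19 of 31 promoters were higher in DKO after quantile normalization and 9 of 31 without scaling, where the median of all windows shifted to -0.14 and that of member windows to -0.10.

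**Figure D4:**
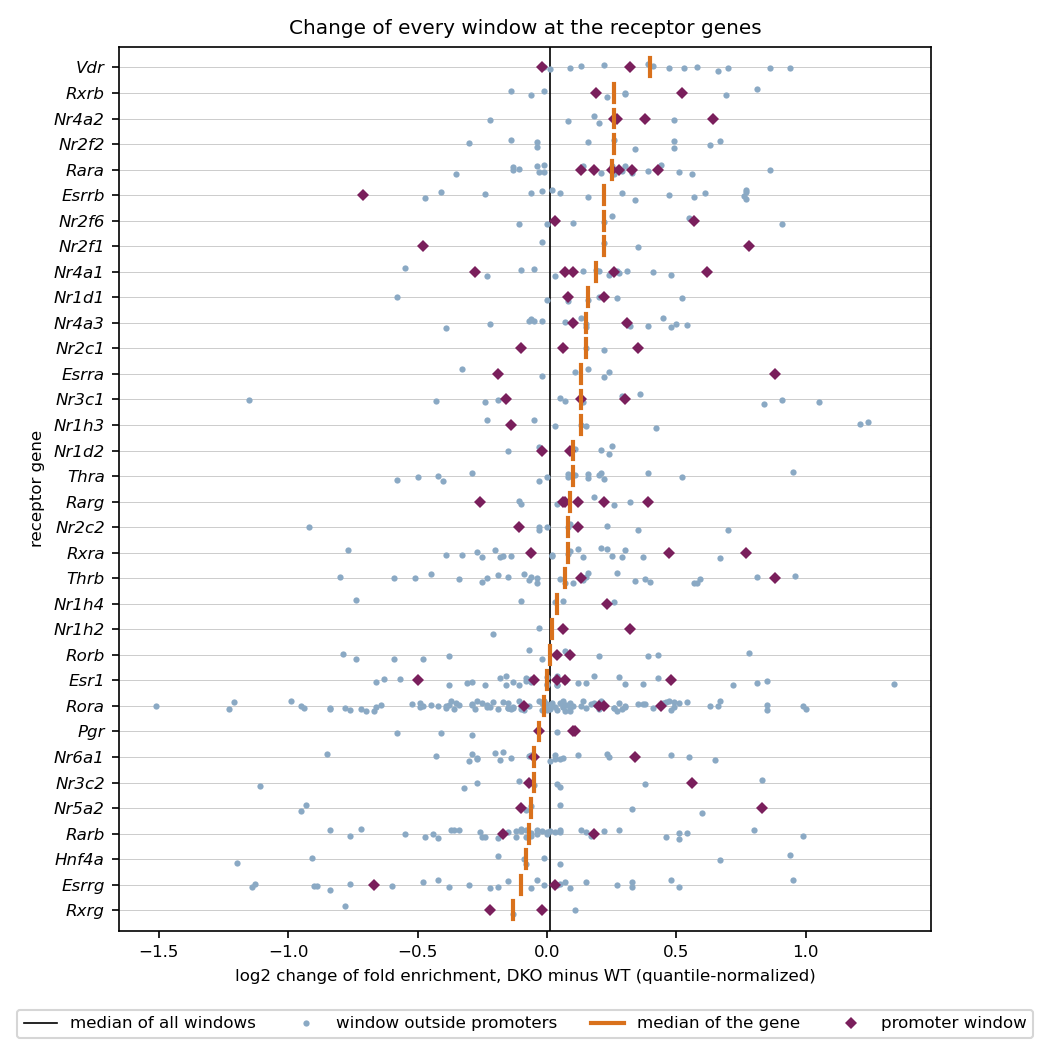
Each row is a receptor gene and each point a window, placed by its log2 change (DKO minus WT) after quantile normalization, with promoter windows as purple diamonds, the median of the gene as an orange bar and the median of all windows as a vertical line. Most gene medians lie within 0.3 of that line, Vdr is highest at 0.40 and Rxrg lowest at -0.13.

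The thyroid hormone receptor β promoter was the member window called in that narrower fit. At chr14:17660601-17661101, centred 45 bp from the TSS, the fold enrichment was 5.92, 8.89 and 8.27 in WT and 11.5, 10.7 and 15.8 in DKO. The pileups were 32, 53 and 54 cut sites in WT and 71, 72 and 82 in DKO, and the ranks by p were 110885, 41831 and 78563 in WT and 28902, 32319 and 10005 in DKO. All 3 DKO libraries were above all 3 WT libraries in fold enrichment and pileup and ranked better. In these bulk libraries, more cells with the site open and more open chromatin in each cell cannot be told apart. The mean was 7.70 ± 1.56 (SD, n = 3) in WT and 12.7 ± 2.72 in DKO, a difference of 0.88 ± 0.23 (SE) on the log2 scale. In the fit to all windows limma gave an unadjusted p of 0.00288 and an adjusted p of 0.165, and in the fit to windows that every library lists an adjusted p of 0.0247. Leaving out 1 library at a time moved the difference between 0.68 (without DKO replicate 3, the highest) and 1.11, with adjusted p by limma of 0.199 to 0.398. The other Thrb promoter window differed by 0.13, and the strongest intronic window by 0.16 ± 0.11. Thra, the other thyroid hormone receptor gene, differed by 0.11 at its window near the comprehensive TSS.

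**Figure D5:**
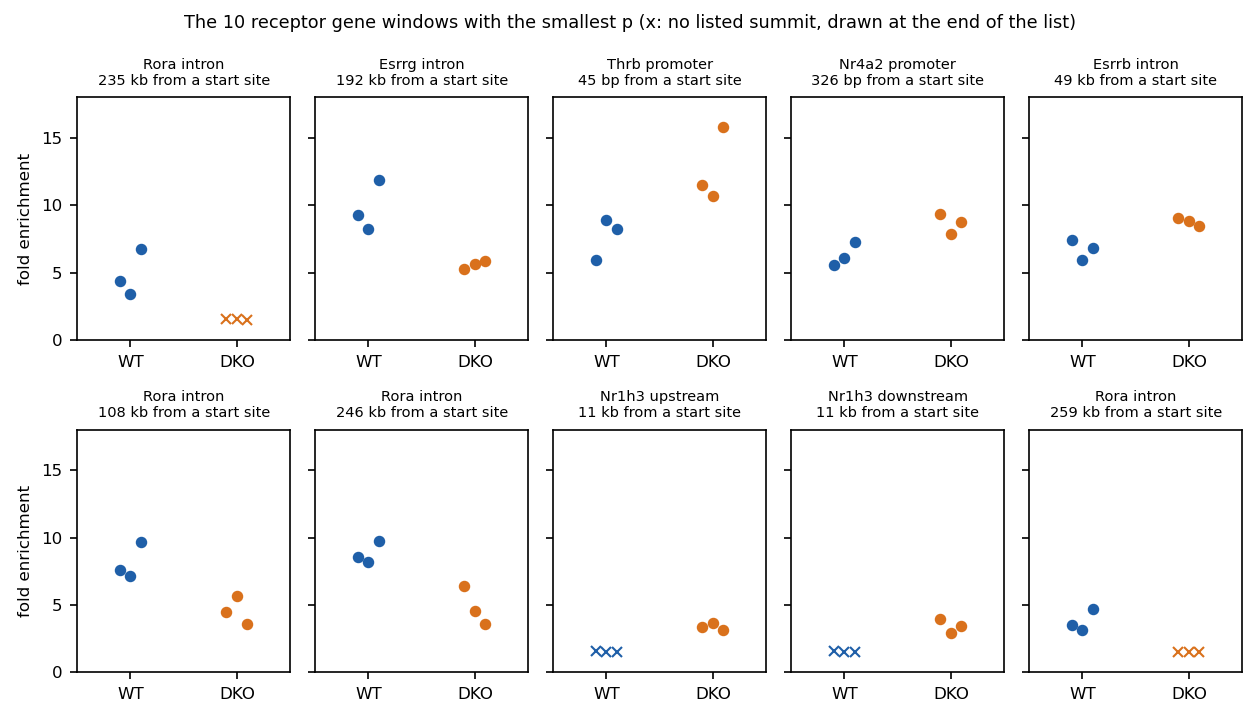
The vertical axis is the fold enrichment in each WT (blue) and DKO (orange) library for the 10 receptor gene windows with the smallest p, and crosses mark libraries without a summit, drawn at the lowest value of their list. The Thrb, Nr4a2 and Esrrb windows are higher in all 3 DKO libraries, the Esrrg and 4 Rora windows are lower or unlisted, and 2 Nr1h3 windows are listed in DKO alone.

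NR4A genes, which are induced rapidly by cAMP and other stimuli, had a median difference of 0.19 over 47 windows, with 35 higher (74.5%, against 51.4% of all windows) and 12 lower in DKO. Without scaling the counts were 25 and 22, with a median of 0.04 against -0.14 for all windows, a value that 35 of the 47 exceeded. On −log10 p the counts were 29 and 18, with a median of 0.09. The 19 Nr4a3 windows had a median of 0.15, which turned to -0.02 without scaling and -0.03 on −log10 p. Above the median of all windows lay 13 of the 19 without scaling and 9 on −log10 p. The leading window lay 326 bp from the TSS of Nr4a2, which encodes NURR1, at chr2:57123427-57123927. It had 5.57, 6.06 and 7.26 in WT and 9.39, 7.90 and 8.76 in DKO, with no overlap and a difference of 0.64 ± 0.17 (limma, unadjusted p = 0.00291, adjusted p = 0.165). The stronger Nr4a2 promoter window, centred 259 bp from the TSS, differed by 0.26 ± 0.13, the promoter used by Nr4a1 by 0.26 ± 0.20 and that of Nr4a3 by 0.10, which turned to -0.08 without scaling.

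Rora, the gene with most windows, had 10 of 113 lower in DKO at an unadjusted p under 0.05 (8.85%, against 6.10% of all windows) and 4 higher (3.54%, against 5.69%). Its median over the gene was -0.01. In intron 1, chr9:69181313-69181813 had 7.59, 7.12 and 9.69 in WT and 4.47, 5.67 and 3.60 in DKO, a difference of -0.66 ± 0.20 (limma, adjusted p = 0.200). In the same intron chr9:68900016-68900516 had 8.53, 8.19 and 9.74 in WT and 6.43, 4.53 and 3.60 in DKO, a difference of -0.72 ± 0.22 (limma, adjusted p = 0.202). Neither window had overlapping values. The window chr9:69054623-69055123 was listed in WT alone, at 4.38, 3.42 and 6.75 with pileups of 14, 11 and 22. Its difference of -1.51 is measured from the lowest fold enrichment anywhere in each DKO list (1.53 to 1.55). It depends on that fill value and is not a fold change of accessibility. The Rora promoter lay in the other direction, with 7.91, 7.44 and 10.1 in WT and 10.3, 9.35 and 10.7 in DKO (0.44 ± 0.14, limma, adjusted p = 0.222). The strongest intronic window of the gene, chr9:69092101-69092601, differed by 0.15 ± 0.10.

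Among the oestrogen-related receptors, which bind DNA without a known natural ligand, no window was called, and the Esrrg and Esrrb windows of smallest p are described here. The Esrrg window chr1:187800505-187801005 in intron 2 had 9.27, 8.25 and 11.9 in WT and 5.31, 5.67 and 5.90 in DKO, with no overlap (-0.60 ± 0.15, limma, unadjusted p = 0.00273, adjusted p = 0.164). Of the 30 Esrrg windows, 4 were lower at an unadjusted p under 0.05 (13.3%, against 6.10% of all windows) and 0 higher (against 5.69%), and their median was -0.10. At Esrrb, chr12:86518409-86518909 in intron 6 had 7.45, 5.95 and 6.83 in WT and 9.09, 8.82 and 8.48 in DKO (0.57 ± 0.15, limma, adjusted p = 0.170), and the promoter window, missing from 1 DKO library, differed by -0.71. The strongest windows of Esrrg and Esrrb differed by -0.01 and -0.06. The 18 Esrrb windows had a median of 0.22, with 12 higher and 6 lower. Without scaling 9 were higher and 9 lower, and 12 of the 18 lay above the median of all windows (-0.14). The difference between these genes was not tested.

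Windows listed in 1 genotype alone were few. In the 3 WT libraries and none of the DKO libraries there were 7 (1.16%, against 1.23% of all windows), namely 4 in Rora introns and 1 each in an Esrrg intron, an Nr3c1 intron and upstream of Hnf4a. In the 3 DKO libraries and none of the WT libraries there were 2 (0.331%, against 1.14%), both beside Nr1h3, which encodes the oxysterol receptor LXRα. One lay upstream at chr2:91206248-91206748, 3589 bp from the TSS of Acp2, with 3.40, 3.65 and 3.11. The other lay downstream at chr2:91183724-91184224, 156 bp from the TSS of Madd, with 3.96, 2.92 and 3.44. The Nr3c1 window, chr18:39468512-39469012 in intron 2 of the glucocorticoid receptor gene, had 3.80, 3.13 and 3.82 in WT. These counts depend on how a summit was assigned: with summits within 100 bp of the window centre there were 6 of each kind, and within the 100000 smallest p of each list 2 in WT alone and 3 in DKO alone. Leaving out 1 library gave 8 to 14 and 4 to 11. All 9 windows were weak, with fold enrichments under 7 where listed.

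Promoters of the other ligand receptors were not called either. The Rxrb window had 4.72, 7.56 and 7.16 in WT and 7.93, 8.03 and 8.16 in DKO, a difference of 0.52 ± 0.21 (SE; limma, unadjusted p = 0.0367, adjusted p = 0.385), and WT replicate 1 was the low value (0.32 without it). The raw values did not overlap, but the normalized values did. The glucocorticoid receptor gene Nr3c1 had a promoter mean of 12.9 ± 1.91 (SD, n = 3) in WT and 12.4 ± 0.993 in DKO. Esr1 had 11.7 ± 3.65 and 9.75 ± 1.60, Rara 9.74 ± 0.562 and 9.40 ± 1.55, and Rarg 7.38 ± 0.456 and 6.81 ± 1.05. Nr1h3 had 14.0, 9.78 and 13.3 in WT and 7.83, 13.3 and 8.96 in DKO, and its normalized difference of -0.14 ± 0.18 (SE) turned to 0.02 without DKO replicate 1. Values of the groups overlapped at each of these promoters. At Nr1h2, which encodes LXRβ, the promoter mean was 10.6 ± 0.944 in WT and 11.7 ± 0.617 in DKO (0.32 ± 0.12, limma, unadjusted p = 0.0213, adjusted p = 0.316). Nr1h4, the bile acid receptor gene, had an open promoter at 7.16 ± 1.17 and 7.31 ± 0.688.

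The vitamin D receptor gene Vdr had the highest gene median, 0.40 over 16 windows, of which 14 were higher in DKO, and was singled out after its values were seen. The median was 0.39 with median centring, 0.22 without scaling and 0.37 on −log10 p. The stronger of its promoter windows had raw values of 11.3, 11.2 and 11.1 in WT and 9.70, 9.89 and 9.55 in DKO and a normalized difference of -0.02 ± 0.14. The other Vdr promoter window, centred 967 bp from a TSS, had 8.67, 7.57 and 8.07 in WT and 8.11, 9.02 and 9.66 in DKO, with a difference of 0.32 ± 0.16 (limma, adjusted p = 0.455). The intron 3 window chr15:97880397-97880897 had 6.15, 4.37 and 4.55 in WT and 6.22, 7.59 and 6.08 in DKO (0.58 ± 0.22, limma, adjusted p = 0.321). Of the 16 windows, 8 were listed in all 6 libraries. No Vdr window was called by limma.

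Genes that work with the receptors were examined by their strongest promoter window, and limma called 0 in each list. Of 16 coregulator genes 15 had a promoter window, 13 of them in all 6 libraries, and the exception was Ppargc1a, the coactivator of thermogenic genes. Ncoa2, a p160 coactivator gene, was strongest with 20.8, 20.1 and 25.1 in WT and 20.5, 19.0 and 17.8 in DKO. At an unadjusted p under 0.05, Crebbp (0.35) and Tbl1x (1.23) were higher in DKO and none was lower, of 15 promoters, where 8.17% of all windows near a TSS were higher and 2.60% lower. Tbl1x was listed in 1 WT library, so its difference is measured from the lowest fold enrichment of the other WT lists and is not a fold change. The median of the list was 0.20, with 13 higher and 2 lower, beside 0.08 and 63.9% higher over all windows near a TSS. Without scaling it was 0.03, with 8 higher and 7 lower, beside -0.07 and 38.9% higher over those windows (a check of the lists added after the data were seen). Windows were present at 11 of 12 genes of retinoid supply and breakdown, with 0 at an unadjusted p under 0.05 against those same shares, and at 8 of 8 glucocorticoid receptor targets, 5 of 5 LXR targets, 3 of 4 thyroid hormone genes and the vitamin D target Cyp24a1. Of the glucocorticoid receptor targets 7 were higher and 1 lower (4 and 4 without scaling, where 38.9% of all windows near a TSS were higher). Zbtb16, a zinc finger gene among them, had 6.90, 5.12 and 7.34 in WT and 7.03, 8.66 and 7.20 in DKO (0.44 ± 0.16, limma, unadjusted p = 0.0189, adjusted p = 0.300). Fkbp5, a glucocorticoid target and chaperone partner of the receptor, had 19.0, 14.6 and 22.5 in WT and 17.8, 19.4 and 16.9 in DKO.

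All 12 clock partners of the REV-ERBs and RORs had a promoter window in all 6 libraries, with a median difference of 0.19. At an unadjusted p under 0.05, 3 of the 12 were higher in DKO and 0 lower, where 8.17% of all windows near a TSS were higher and 2.60% lower. Without scaling the median was 0.01, with 7 higher and 5 lower, beside -0.07 and 38.9% higher over all windows near a TSS. On −log10 p the median was 0.04, also with 7 higher and 5 lower, beside 0.08 and 58.9% higher over those windows. Clock, the histone acetyltransferase partner of BMAL1, had 6.35, 6.68 and 6.57 in WT and 10.9, 8.54 and 8.63 in DKO, without overlap (0.69 ± 0.17, limma, unadjusted p = 0.00242, adjusted p = 0.161). The repressor gene Cry1 had 5.62, 10.5 and 8.15 in WT and 11.0, 12.0 and 10.1 in DKO (0.66 ± 0.24, limma, adjusted p = 0.304). Arntl, which encodes BMAL1, differed by 0.20 ± 0.09 (limma, adjusted p = 0.422). The Nr1d1 promoter, which encodes REV-ERBα, had 7.73 ± 0.176 (SD, n = 3) in WT and 7.20 ± 0.744 in DKO with a normalized difference of 0.08, and the Nr1d2 promoter differed by -0.02, whereas the Rora promoter differed by 0.44 ± 0.14 (SE). These values were not tested against those of the partners.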

How the data were processed

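The authors trimmed paired-end reads with cutadapt 1.18, aligned them to mm10 with Bowtie2 2.3.4.3, removed duplicate and mitochondrial reads and called peaks in each library with MACS2 (version not given in the sources used here), per the submitters' notes and methods. Default settings are stated, whereas the list names give a p of 0.01 and the 300000 best peaks. The deposited fold enrichment is a ratio of pileup to local background and the deposited p is a −log10 value, neither corrected for depth. Read totals were not used here. Whole pileups were recovered from both by the Poisson model for at least 99.7% of summits, within 0.01 of −log10 p.

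Windows of 501 bp were centred on summits, best first, and kept with a q under 0.01 in at least 2 libraries. An unlisted window took the lowest fold enrichment anywhere in its list (1.49 to 1.57). That value need not belong to the last summit by p, so differences resting on it can exceed the gap to the end of the list. Values were quantile-normalized on the log2 scale and compared with limma 3.58.1 in R 4.3.3 (lmFit and eBayes with trend). The two-sided p-values were adjusted across the 179254 windows by the Benjamini-Hochberg method, and those under 0.05 were called. The fit was tested on simulated data. Positions are from GENCODE M21 (basic set) and sequences from GRCm38.p6 of RefSeq; the promoter used is the strongest window within 1 kb of a TSS. Named in full were these promoters, called windows, the 10 smallest p, windows of 1 genotype alone and the strongest windows outside promoters of the 10 genes with most windows, and others are marked as chosen afterwards. Alternatives were other scalings, −log10 p, no trend, stricter lists, a replicate block and leaving out libraries. The members and lists were chosen with earlier results of these data known.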

Additional observations from a re-analysis of the deposited data

How the results depend on the processing

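The count of 0 called member windows held under each scaling, with −log10 p, within the 100000 smallest p, with summits within 100 bp of the centre, without any 1 library and in the gene body, and changed to 8 without the trend and 1 with a summit in all 6 libraries. Over all windows, 102 calls became 244 with median centring, 26 without scaling, 4136 without the trend, 908 with a summit in all 6 libraries, 0 within the 100000 smallest p, 63 with summits near the centre and 0 to 6 without 1 library. Replicate numbers did not pair the libraries, as the deviations of same-numbered libraries correlated at 0.0054, -0.011 and -0.0071, and with the replicate block 0 windows were called and the median over member windows stayed at 0.047. That median was 0.063 with median centring, -0.101 without scaling, 0.021 on −log10 p, 0.020 with a summit in all 6 libraries, 0.032 within the 100000 smallest p and 0.030 in the gene body. Promoters higher in DKO numbered 9 without scaling, where the median of all windows was -0.14. The difference in open promoters (-0.333 genes) became 0.333 within the 100000 smallest p and 0.667 within 500 bp of a TSS. Windows listed in WT alone numbered 6 with summits near the centre, 2 within the 100000 smallest p and 8 to 14 without 1 library, and those in DKO alone 6, 3 and 4 to 11 under the same changes. Without 1 library, fewer libraries had to lack a summit.

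Of 837 alternative values, 742 kept direction and call. Differences close to 0 changed sign. Without scaling they were -0.06 at the promoters of Rara, -0.13 of Rarg, -0.04 of Nr3c1, -0.03 of Pgr, -0.11 of Nr1d1, -0.07 of Rorb, -0.08 of Nr4a3, -0.15 of Nr2f6, -0.09 of Nr2c1 and -0.09 of Esrrg, and at the strongest intronic windows -0.11 for Nr6a1 and -0.09 for Rxra. On −log10 p they were -0.04 at Rarg, -0.13 at Nr1d1 and -0.09 at the Rxra intron. Median centring gave 0.00 at Nr3c2, 0.01 at Nr1d2 and 0.04 at the strongest Esrrg intron, and summits near the centre gave 0.01 at Rxrg and 0.04 at the Esr1 intron. Without 1 library the promoters ranged from -0.38 to 0.33 at Rxra, -0.23 to 0.10 at Rxrg, -0.04 to 0.21 at Rarg, -0.15 to 0.09 at Vdr, -0.32 to 0.02 at Nr1h3, -0.20 to 0.02 at Nr3c2, -0.13 to 0.08 at Esr1, -0.01 to 0.23 at Pgr, -0.02 to 0.18 at Nr1d1, -0.10 to 0.03 at Nr1d2, -0.01 to 0.20 at Rorb, -0.08 to 0.26 at Nr4a3, -0.02 to 0.11 at Nr2f6, -0.22 to 0.05 at Nr2c2 and -0.45 to 0.53 at Esrrg. The strongest intronic windows ranged from -0.07 to 0.08 at Esrrg, -0.07 to 0.07 at Nr6a1 and -0.02 to 0.07 at Rxra. Apart from the steps in which fewer windows or libraries entered, the cause was not tested. With 3 libraries a group and lists of fixed length, a site below the end of a list could not be measured.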
